A study of Homo sapiens with 20 samples.

Results

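The response of RKO cells to the tankyrase inhibitor G007-LK was described over the 10518 of 21201 gene symbols whose mean was at least 1 RPKM (reads scaled to gene length and to the number of mapped reads) over the 4 RKO libraries. A blank entry was read as 0, and 4430 symbols were at 0 in all 4 libraries. GATSL3, SNORA27 and ARMCX4 lay just outside the limit at means of 0.9991, 0.9992 and 0.9996 RPKM, and TMEM53, P2RY1 and SNORD12 just inside it at 1.0001, 1.0004 and 1.0009 RPKM. RKO is an established human colorectal adenocarcinoma line that the study used as the TNKSi-insensitive control for 4 sensitive tumor lines: COLO320DM (colorectal adenocarcinoma), UO-31 (renal cell carcinoma), OVCAR-4 (high grade serous ovarian carcinoma) and ABC-1 (lung adenocarcinoma). Each line was grown for 24 h with 1 µM G007-LK or with its vehicle, dimethyl sulfoxide (DMSO), and polyadenylated RNA of 2 biological replicates per group was sequenced, 20 libraries in all. RKO and ABC-1 were kept in EMEM and the others in RPMI-1640, both with fetal bovine serum, so medium and line cannot be told apart in part of the comparisons. The p-values below measure the spread between 2 libraries per group of 1 line, which may be largely technical.

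The 4 RKO libraries were alike in depth and makeup. The file holds no counts, so absolute depth is unknown. From the steps between the low values of a gene, the G007-LK libraries held 0.967 and 0.959 times the reads of DMSO replicate 1, and DMSO replicate 2 held 0.978 times as many. Replicates differed by a median of 0.0423 on the log2 scale with G007-LK and 0.0437 with DMSO. Colon markers were mostly missing: 1 of 10 reached 1 RPKM, the intestinal transcription factor CDX2 at a mean of 7.13 RPKM, and 4 were at 0 in all 4 libraries. Of the general epithelial markers 3 of 10 reached 1 RPKM, with KRT18 at 72.3 and EPCAM at 2.90 RPKM, while the adhesion gene CDH1 was at 0.0764 RPKM. Of the mesenchymal markers 2 of 8 reached 1 RPKM, ZEB1 at 46.3 and VIM at 14.1 RPKM, and 3 were at 0 in all 4 libraries. The summed epithelial markers were at 78.5 and 80.2 RPKM with G007-LK, against 86.6 and 85.8 RPKM with DMSO. This lower sum came from KRT18, at 68 and 69 RPKM with G007-LK and 76.8 and 75.2 RPKM with DMSO. EPCAM (3.18 and 2.97 against 2.71 and 2.73 RPKM) and KRT8 (6.53 and 7.53 against 6.38 and 6.83 RPKM) were not lower. The part of the marker difference in the results below was not tested. Marker sums for blood, endothelium and fibroblasts did not exceed 0.0633 RPKM in any RKO library. In bulk RNA, fewer cells of a state and less RNA per cell cannot be told apart.

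Tankyrase 1 and 2 (TNKS and TNKS2) are poly(ADP-ribose) polymerases that mark AXIN, the scaffold of the β-catenin destruction complex, and the angiomotins, which hold the growth regulator YAP in the cytoplasm, for degradation. Inhibiting them stabilizes these proteins, and this can lower transcription of WNT/β-catenin and YAP/TEAD target genes. Sterol synthesis is under feedback: when membrane sterol falls, SREBP2 is released from the endoplasmic reticulum and activates the genes of the mevalonate and sterol pathway and of lipoprotein uptake.

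G007-LK changed 432 genes in RKO (4.11% of those tested), and nearly all of them little. By limma at a Benjamini-Hochberg adjusted p under 0.05, 143 genes (1.36%) rose and 289 (2.75%) fell, with median log2 fold changes of 0.21 and −0.15 on the log2(RPKM + 0.5) scale, which understates changes of low genes. At an unadjusted p under 0.05, 628 genes were higher and 1640 lower. Only 4 of the genes that rose and 3 of those that fell did so by 1.5-fold or more. These were HMOX1, MSMO1 and the small nucleolar RNAs SNORA70E and SNORD35B among the rises, and the keratin-associated KRTAP2-3 and the small nucleolar RNAs SNORA31 and SNORD10 among the falls. In the sensitive lines, 2113 called genes changed by 1.5-fold or more in ABC-1 (57.9% of all genes tested were called there at any size), 522 in OVCAR-4 (51.5%), 1057 in UO-31 (13.4%) and 611 in COLO320DM (19.3%). Here and below, calls within ABC-1 or UO-31 alone took their spread from a trend across genes. Their counts are therefore a loose guide.

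The balance of rises and falls in RKO depended on scaling. The median gene was at −0.023 on the log2 scale, and with the libraries set to a common median ratio (called rescaling below) 174 genes (1.65%) were called higher and 111 (1.06%) lower, 2.71% together. Rescaling kept all 143 rises, but only 111 of the 289 falls. Leaving out any 1 of the 4 RKO libraries left 56 to 71 rises and 62 to 84 falls, and 37 rises and 32 falls were called in the full fit and in all 4 of these. When 1 spread was estimated over all 20 libraries, 7 rises and 4 falls passed. A rule like that of NOISeq, computed from the RPKM, also called 7 rises and 4 falls, 6 of which limma called too. Among named lists it called 2 members of sterol synthesis, 1 of the NRF2 targets and 1 immediate early gene, all higher, and 0 of any other list apart from small RNAs.

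**Figure D1:**
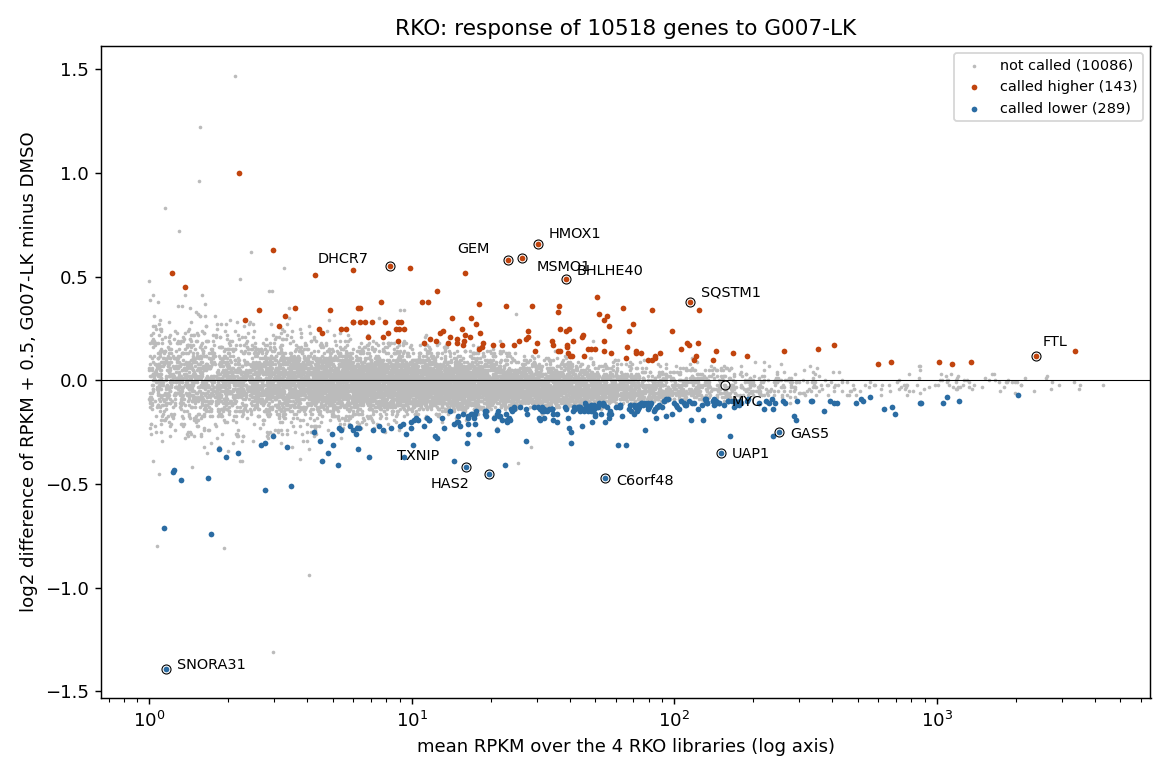
Change with G007-LK of every gene tested in RKO. The x axis is the mean of the 4 RKO libraries in RPKM (log axis), the y axis the log2 fold change of G007-LK over DMSO on log2(RPKM + 0.5), each point is 1 gene, and the 143 genes called higher and 289 called lower are coloured. Nearly all called genes lie close to 0, and HMOX1 at 0.66 is the highest among those of at least 5 RPKM.

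HMOX1 (chromosome 22, 35776354 to 35790207 in GRCh37, plus strand), which encodes the heme-degrading enzyme heme oxygenase 1, had the largest rise among genes of at least 5 RPKM. It had 37.3 and 36.8 RPKM with G007-LK, against 23.3 and 23.3 RPKM with DMSO, a log2 fold change of 0.66 (SE 0.03, adjusted p = 1.1e-05). The next rises were MSMO1 (0.59) and DHCR7 (0.55) of sterol synthesis and GEM (0.58), a small RAS-like GTPase induced by mitogens. GEM had 27.2 and 28.7 RPKM with G007-LK and 19.0 and 17.9 RPKM with DMSO (adjusted p = 0.00011). BHLHE40, a helix-loop-helix repressor, had 43.6 and 46.9 RPKM with G007-LK, against 32.4 and 31.8 RPKM with DMSO (log2 fold change 0.49, adjusted p = 0.00014). In each of these genes both treated libraries lay above both control libraries.

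Further rises of like size were found in INO80C (0.43), a subunit of a chromatin remodeling complex, METTL7B (0.38), a methyltransferase, LAIR2 (0.38), a secreted collagen receptor, and TM4SF19 (0.38), a membrane protein of the tetraspanin-like family. STARD4, INSIG1, HMGCS1, CYP51A1 and SQSTM1 were also among the 15 largest and are described with their groups.

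The clearest group was sterol synthesis. Of its 20 enzymes, all measured, 15 rose (75%, against 1.36% of all genes) and 0 fell, also at an unadjusted p under 0.05, where 18 were higher. The median log2 fold change was 0.26 (all genes, −0.023), all 20 were above 0, and in 19 both G007-LK libraries lay above both DMSO libraries, which held for 16.7% of all genes. The rises ran along the whole route from acetoacetyl-CoA to cholesterol.

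In the mevalonate branch, HMGCS1, which makes HMG-CoA, had 11.3 and 12.3 RPKM with G007-LK, against 7.87 and 8.02 RPKM with DMSO (log2 fold change 0.54, SE 0.05, adjusted p = 0.00039). The treated and control libraries did not overlap. ACAT2, which joins acetyl-CoA units, rose by 0.17 and the mevalonate kinase MVK by 0.28. IDI1, which isomerizes the isoprene unit, rose by 0.36, and FDPS, which makes farnesyl pyrophosphate, by 0.11 (adjusted p = 0.042). PMVK at 0.07 and MVD at 0.18, the kinase and decarboxylase that follow MVK, did not pass (adjusted p = 0.31 and 0.108).

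In the committed branch, the squalene synthase FDFT1 had 70.7 and 72.6 RPKM with G007-LK, against 55.5 and 56.9 RPKM with DMSO (log2 fold change 0.35, adjusted p = 0.00016). The squalene epoxidase SQLE had 56.3 and 58.4 RPKM with G007-LK and 45.2 and 46.3 RPKM with DMSO (0.32, adjusted p = 0.00039). LSS, which closes the sterol ring, was at 0.17 and just missed the threshold (adjusted p = 0.0505, 0.0423 after rescaling). The lanosterol demethylase CYP51A1 had 58.5 and 57.8 RPKM with G007-LK, against 43.1 and 44.7 RPKM with DMSO (0.40, adjusted p = 0.00012). MSMO1 (chromosome 4, 166248819 to 166264316 in GRCh37, plus strand), the C4-methyl sterol oxidase, had 31.7 and 31.6 RPKM with G007-LK, against 19.8 and 22.1 RPKM with DMSO (0.59, SE 0.05, adjusted p = 0.00016). It showed the largest change of the 20 enzymes, although its DMSO replicates were also farther apart than those of CYP51A1.

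Smaller rises were measured for NSDHL (0.23), TM7SF2 (0.18) and EBP (0.15), which act on the intermediates between lanosterol and the last steps, whereas HSD17B7 at 0.11 and SC5D at 0.22 did not pass (adjusted p = 0.593 and 0.0705). DHCR7 (chromosome 11, 71139239 to 71163914 in GRCh37, minus strand), which makes cholesterol from 7-dehydrocholesterol, had 9.84 and 9.99 RPKM with G007-LK, against 6.62 and 6.63 RPKM with DMSO (log2 fold change 0.55, SE 0.04, adjusted p = 0.00018). Leaving out any 1 RKO library left 9 to 12 of the 15 calls, and the spread over all 20 libraries left 2, with every enzyme called keeping its direction.

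**Figure D2:**
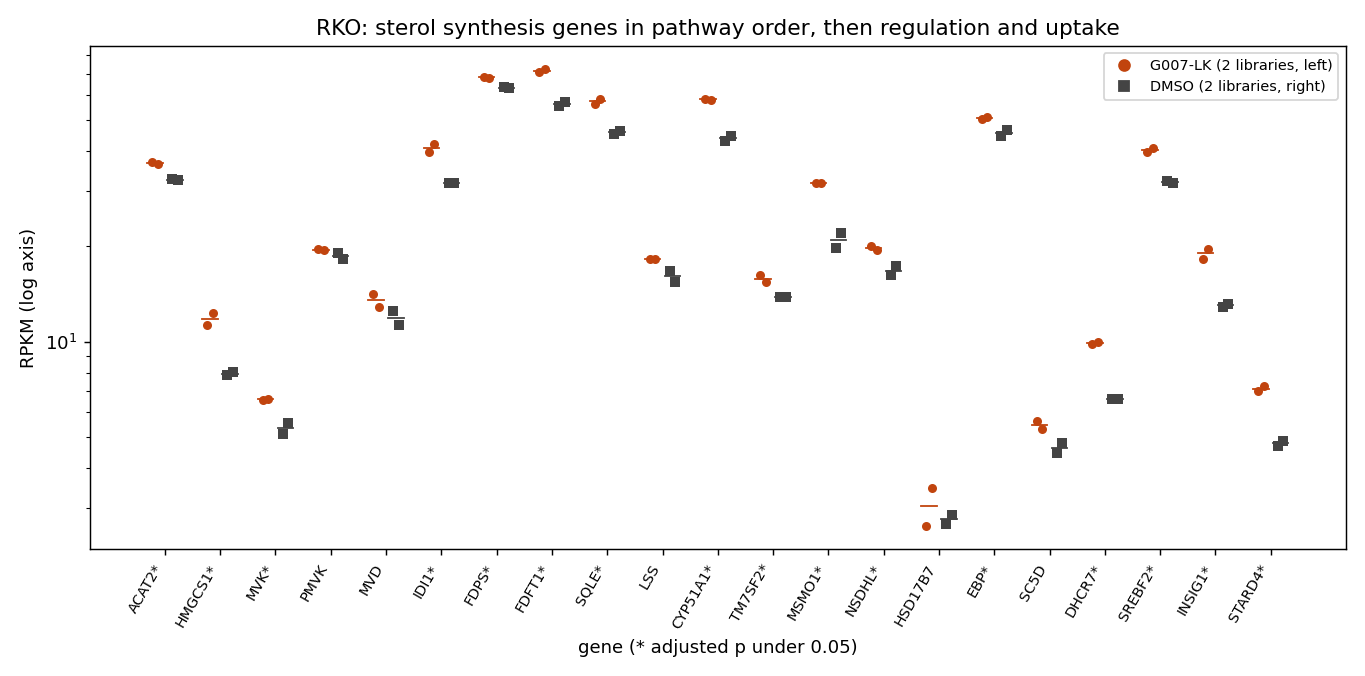
Sterol genes in each RKO library. The y axis is RPKM on a log axis, points are single libraries and short lines their means, with G007-LK left of DMSO for each gene and an asterisk for genes called. In DHCR7 the treated libraries sit at 9.84 and 9.99 RPKM and the control libraries at 6.62 and 6.63 RPKM.

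Genes that sense and import sterol moved less evenly: 6 of 17 rose (35.3%, against 1.36% of all genes) and 0 fell, with 1 lower at an unadjusted p under 0.05, and a median of 0.06. STARD4, which carries sterol between membranes, had 7.02 and 7.24 RPKM with G007-LK and 4.70 and 4.88 RPKM with DMSO (log2 fold change 0.53, adjusted p = 0.00057). INSIG1, the anchor that keeps SREBP2 in the endoplasmic reticulum, had 18.3 and 19.7 RPKM with G007-LK, against 12.9 and 13.2 RPKM with DMSO (0.52, adjusted p = 0.00021). SREBF2, the gene of SREBP2 itself, had 39.7 and 41.0 RPKM with G007-LK and 32.2 and 31.7 RPKM with DMSO (0.33, adjusted p = 0.00039). NPC1 (0.25) and NPC2 (0.19), which release sterol from lysosomes, also rose. Of 15 fatty acid genes, 3 rose (20%, against 1.36% of all genes) and 1 fell (6.67%, against 2.75%). The desaturase SCD (0.34), the synthase FASN (0.24) and the phosphatidate phosphatase LPIN1 (0.24) rose. The acyl-CoA ligase ACSL4 fell by 0.14, a fall that was lost after rescaling (adjusted p = 0.0729).

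The promoters of the enzymes with the largest rises and of SREBF2 are shown because their genes moved together. They are RefSeq sequences of GRCh38.p14, 250 bases before to 50 after the gene start, read 5′ to 3′ on the gene's strand: MSMO1 at chr4:165327419-165327718 (plus), HMGCS1 at chr5:43313363-43313662 (minus), DHCR7 at chr11:71448344-71448643 (minus) and SREBF2 at chr22:41832855-41833154 (plus). Capitals mark CCAAT, the box bound by NF-Y, on either strand (ATTGG on the printed one), and in SREBF2 also the sterol regulatory element TCACCCCAC on either strand.
MSMO1: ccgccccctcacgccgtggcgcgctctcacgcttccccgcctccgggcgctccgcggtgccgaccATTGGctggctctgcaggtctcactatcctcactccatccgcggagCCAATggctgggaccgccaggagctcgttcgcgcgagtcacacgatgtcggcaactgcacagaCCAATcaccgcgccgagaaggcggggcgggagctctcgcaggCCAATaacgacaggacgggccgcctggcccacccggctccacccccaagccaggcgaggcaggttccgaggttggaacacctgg
HMGCS1: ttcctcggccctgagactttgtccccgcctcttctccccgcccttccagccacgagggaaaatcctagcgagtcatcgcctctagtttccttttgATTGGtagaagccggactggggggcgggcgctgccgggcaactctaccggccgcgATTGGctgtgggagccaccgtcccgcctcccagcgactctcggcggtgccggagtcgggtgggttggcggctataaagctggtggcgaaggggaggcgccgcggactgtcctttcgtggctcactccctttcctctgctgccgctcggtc
DHCR7: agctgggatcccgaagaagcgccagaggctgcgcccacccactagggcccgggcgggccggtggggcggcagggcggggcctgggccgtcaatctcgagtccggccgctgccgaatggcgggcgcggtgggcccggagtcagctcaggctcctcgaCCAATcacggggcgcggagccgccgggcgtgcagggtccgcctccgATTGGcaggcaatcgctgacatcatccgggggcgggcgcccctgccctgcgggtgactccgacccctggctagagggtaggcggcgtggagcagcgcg
SREBF2: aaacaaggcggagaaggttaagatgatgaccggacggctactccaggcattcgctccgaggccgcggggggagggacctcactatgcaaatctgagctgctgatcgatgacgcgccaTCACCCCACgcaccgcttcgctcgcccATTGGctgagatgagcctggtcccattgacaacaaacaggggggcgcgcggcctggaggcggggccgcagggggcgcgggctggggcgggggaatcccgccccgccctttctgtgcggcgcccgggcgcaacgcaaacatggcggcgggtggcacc
CCAAT was present in 15 of the 20 promoters matched to the sterol enzymes (75%), in 34.6% of all 35116 promoters in the table and in 27 of 33 promoters of the mitosis genes (81.8%), a list that did not rise. The strict element TCACCCCAC was in 0 of the 20 enzyme promoters and in 151 of all promoters (0.43%). These matches describe the letters in a fixed window, and nothing about binding was measured.

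Among 21 NRF2 targets, which encode antioxidant and iron-handling proteins, 2 rose (9.52%, against 1.36% of all genes) and 0 fell (1 lower and 9 higher at an unadjusted p under 0.05, median 0.05). They were HMOX1 and the ferritin light chain FTL, which had 2470.3 and 2514 RPKM with G007-LK and 2273 and 2299 RPKM with DMSO (log2 fold change 0.12, adjusted p = 0.00281). FTL has many near-identical copies in the genome, so its level is uncertain.

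Of 34 lysosome genes, 8 rose (23.5%, against 1.36% of all genes) and 0 fell, also at an unadjusted p under 0.05, with a median of 0.07. SQSTM1, the autophagy receptor p62, had 128 and 133 RPKM with G007-LK, against 97.8 and 103 RPKM with DMSO (log2 fold change 0.38, SE 0.03, adjusted p = 0.00014). The sialidase gene NEU1 had 26.2 and 25.6 RPKM with G007-LK and 20.3 and 19.8 RPKM with DMSO (0.36, adjusted p = 0.00039). Smaller rises were those of the membrane protein CD63 (0.15), the cathepsins CTSL (0.14) and CTSD (0.10), and the proton pump genes ATP6V1B2 (0.15) and ATP6AP1 (0.12). Leaving out any 1 library left 3 to 5 of the 8.

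Of 8 genes tested from a list of metallothioneins, the metal-binding proteins of the cytosol, and zinc response genes, 4 rose (50%, against 1.36% of all genes). These 4 were metallothioneins, and all rose by little. MT2A, at 3474 and 3577 RPKM with G007-LK and 3237 and 3151 RPKM with DMSO, rose by 0.14 (adjusted p = 0.00344), MT1M by 0.19, MT1X by 0.14 and MT1E by 0.09. Metallothionein genes are near-identical to each other, so reads could be divided between them, and 1 or 2 calls were left when any 1 library was omitted. Other single rises were GDF15 (0.28), a stress-induced secreted factor, and MXD4 (0.28), a MAX partner that opposes MYC. ANGPTL4 (0.31) and NDRG1 (0.30) also rose, the only 2 of 29 hypoxia and glycolysis genes past the threshold (6.9%, against 1.36% of all genes). Of 25 immediate early genes, GEM and IER3 (0.25) rose (8%, against 1.36% of all genes). HBEGF, an EGF receptor ligand, fell by 0.24 (4% of the list, against 2.75%), a fall lost after rescaling (adjusted p = 0.0707). IER3 was also the 1 of 11 NF-κB targets called (9.09%, against 1.36% of all genes). MXD4 was the 1 of 10 genes of the MYC network called (10%, against 1.36%). At an unadjusted p under 0.05, 2 NF-κB targets were higher and 1 lower, and 2 MYC network genes were higher and 0 lower.

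The falls were smaller still. Among the gene lists, the lowest median was that of host transcripts of small nucleolar RNAs, noncoding genes whose introns carry those RNAs. Of 20 tested, 8 fell (40%, against 2.75% of all genes) and 0 rose, also at an unadjusted p under 0.05, with a median of −0.15. C6orf48 (also called SNHG32) had the largest fall among genes of at least 5 RPKM, with 45.1 and 46.5 RPKM with G007-LK, against 64.3 and 62.4 RPKM with DMSO (log2 fold change −0.47, SE 0.03, adjusted p = 7.7e-05). GAS5 (chromosome 1, 173827697 to 173838020 in GRCh37, minus strand), a transcript that accumulates in growth arrest, had 229 and 231 RPKM with G007-LK and 276 and 272 RPKM with DMSO (−0.25, adjusted p = 0.00016). In both genes the treated and control libraries stood apart.

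ZFAS1 (chromosome 20, 47894715 to 47916137, plus strand) had 149.9 and 147 RPKM with G007-LK and 178 and 179 RPKM with DMSO (log2 fold change −0.27, adjusted p = 0.00017). It lies antisense to ZNFX1, and the sources used here do not give the strand of counting, so reads of the pair cannot be told apart. SNHG7 (−0.29), SNHG6 (−0.27), SNHG8 (−0.22), SNHG15 (−0.20) and SNHG5 (−0.15) were the others. The fall of SNHG5 was lost after rescaling (adjusted p = 0.0699), and 5 to 7 of the 8 were left without any 1 library. Transcripts of this kind overlap the small RNA genes they carry. Of the small RNA genes themselves, 74 were tested and 3 rose and 2 fell (4.05% and 2.7%, against 1.36% and 2.75% of all genes). A poly(A) preparation retains such RNAs poorly, and SNORA31 was at only 0.278 and 0.561 RPKM with G007-LK, against 2.15 and 1.65 RPKM with DMSO.

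HAS2 and UAP1 were also among the 15 largest falls. HAS2 (chromosome 8, 122624356 to 122653680 in GRCh37, minus strand), the main hyaluronan synthase, had 16.5 and 16.6 RPKM with G007-LK, against 22.5 and 23.0 RPKM with DMSO (log2 fold change −0.45, SE 0.03, adjusted p = 0.00014). UAP1 (chromosome 1, 162531512 to 162571030, plus strand), which makes the UDP-N-acetylglucosamine that HAS2 uses, had 133 and 133 RPKM with G007-LK, against 170.5 and 169 RPKM with DMSO (−0.35, SE 0.02, adjusted p = 6.5e-05). Its relative UAP1L1 moved the other way, at 19.0 and 19.5 RPKM with G007-LK and 16.3 and 15.5 RPKM with DMSO (0.27, adjusted p = 0.00579), as did the hexosamine deaminase GNPDA1 (0.24). Of the 9 extracellular matrix and hyaluronan genes tested, HAS2 fell and TIMP1 rose, and the median was 0.08. Each was 11.1% of the list, where 2.75% of all genes fell and 1.36% rose.

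TXNIP (chromosome 1, 145438490 to 145442635, plus strand), a thioredoxin-binding protein that responds to glucose, had 14.2 and 13.2 RPKM with G007-LK, against 19.1 and 17.9 RPKM with DMSO (log2 fold change −0.42, adjusted p = 0.00157). It was the only 1 of 18 FOXO-activated genes to fall (5.56%, against 2.75% of all genes), and 0 rose (2 higher at an unadjusted p under 0.05).

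YAP/TEAD target genes, many of them secreted or cytoskeletal, fell in 4 of 18 tested (22.2%, against 2.75% of all genes). They rose in 0, also at an unadjusted p under 0.05, with a median of −0.08. CYR61 (also called CCN1), a matricellular protein and a standard readout of YAP, had 55.4 and 54.0 RPKM with G007-LK, against 68.5 and 67.0 RPKM with DMSO (log2 fold change −0.31, SE 0.03, adjusted p = 0.00034). CTGF (CCN2), its close relative, had 4.16 and 4.19 RPKM with G007-LK and 5.54 and 5.39 RPKM with DMSO (−0.35, adjusted p = 0.00871). AMOTL2, an angiomotin that is itself a YAP target, had 8.44 and 8.76 RPKM with G007-LK, against 10.7 and 10.1 RPKM with DMSO (−0.26, adjusted p = 0.0174).

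The receptor tyrosine kinase AXL fell by 0.11, a call lost after rescaling (adjusted p = 0.0588). CTGF missed the threshold without DMSO replicate 1 (adjusted p = 0.0592), and AMOTL2 missed it without DMSO replicate 1, G007-LK replicate 1 or G007-LK replicate 2 (adjusted p = 0.088, 0.0908 and 0.0553). Among the 15 largest falls, outside the list, the actin-binding TAGLN (transgelin) had 12.8 and 12.2 RPKM with G007-LK, against 16.3 and 16.8 RPKM with DMSO (−0.39, adjusted p = 0.00086). CALD1 (caldesmon) fell by 0.37 and MICAL2, an actin-oxidizing enzyme, by 0.33.

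**Figure D3:**
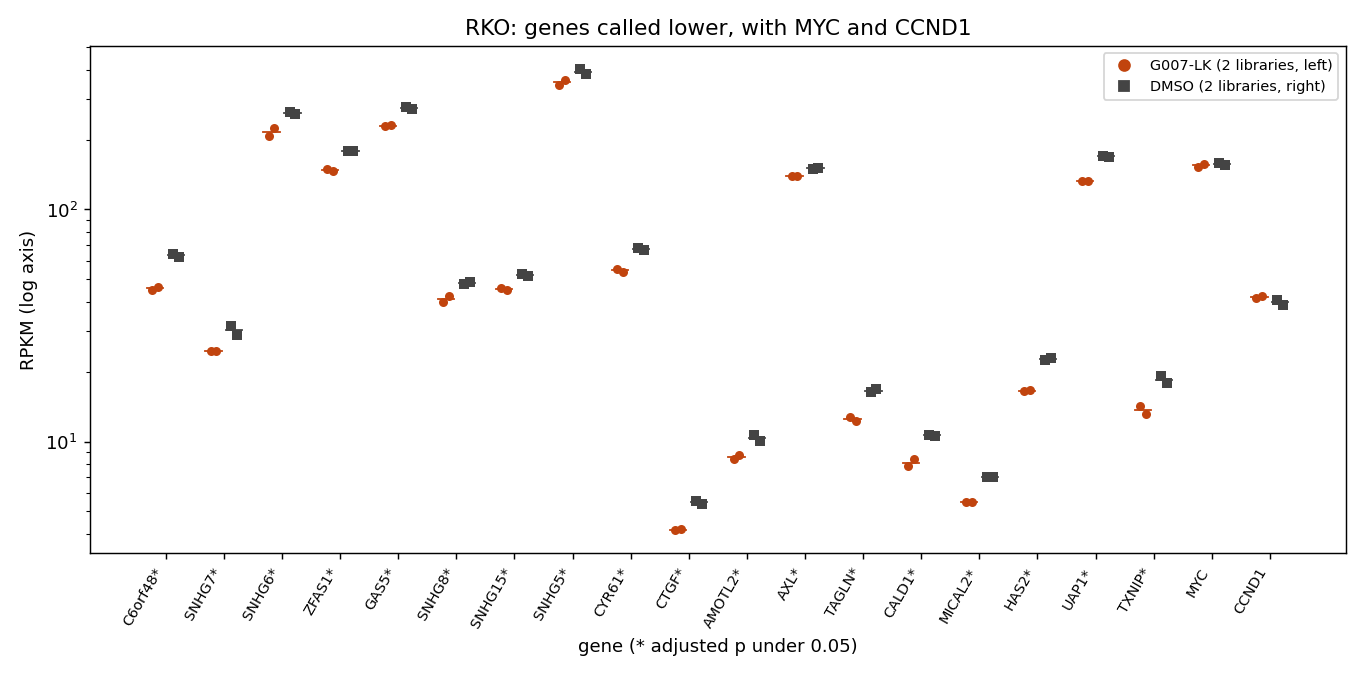
Genes called lower in RKO, and MYC and CCND1, by library. The y axis is RPKM on a log axis, points are single libraries and short lines their means, with G007-LK left of DMSO for each gene, an asterisk for genes called, and MYC and CCND1 at the right for comparison. In C6orf48 the treated libraries sit at 45.1 and 46.5 RPKM and the control libraries at 64.3 and 62.4 RPKM.

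Among the other genes the study followed, MYC and CCND1 did not pass the test. MYC, the growth-promoting transcription factor, had 153 and 157 RPKM with G007-LK and 159 and 155 RPKM with DMSO, overlapping values with a log2 fold change of −0.02 (SE 0.02, adjusted p = 0.695). CCND1, which encodes cyclin D1, had 41.4 and 42.4 RPKM with G007-LK and 40.7 and 38.9 RPKM with DMSO (0.07, adjusted p = 0.214). AXIN2, the usual target of β-catenin, was below the level tested, at 0.512 and 0.568 RPKM with G007-LK and 0.644 and 0.515 RPKM with DMSO. Of 25 WNT/β-catenin targets only 10 passed the filter, and LGR5 was at 0 in all 4 libraries. Among the 10, only the hyaluronan receptor gene CD44 fell, by 0.15 (adjusted p = 0.0194), which is 10% against 2.75% of all genes. In the list 0 rose (2 higher at an unadjusted p under 0.05). The feedback inhibitors NKD1 and NKD2 were at 0.02 and 0.13, neither past the threshold.

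Tankyrases, their substrates and the destruction complex were also close to 0. Of 22 genes, 2 fell (9.09%, against 2.75% of all genes) and 0 rose (1 higher at an unadjusted p under 0.05). The falls were AMOTL2 and the β-catenin gene CTNNB1 (−0.09, adjusted p = 0.0471, lost after rescaling at 0.125). TNKS, at 5.12 and 4.94 RPKM with G007-LK and 4.31 and 4.42 RPKM with DMSO, had the largest positive value, 0.18 (adjusted p = 0.0908). TNKS2 was at 0.00 (adjusted p = 0.979) and AXIN1, the scaffold that tankyrases act on, at 0.02 (adjusted p = 0.823). Among 18 Hippo pathway genes limma called 0, with 0 higher and 1 lower at an unadjusted p under 0.05.

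Proliferation lists had medians slightly below that of all genes. Of 50 MYC targets, mostly genes of ribosome assembly and nucleotide synthesis, 14 fell (28%, against 2.75% of all genes). In this list 0 rose, also at an unadjusted p under 0.05, with a median of −0.09. EBNA1BP2, a ribosome assembly factor, had 120.0 and 120.1 RPKM with G007-LK, against 138 and 136 RPKM with DMSO (−0.19, adjusted p = 0.00162). The nucleolar proteins NCL and NPM1 fell by 0.13 and 0.11, and NOP16 by 0.18. After rescaling 5 of the 14 passed, and 3 to 6 passed without any 1 library.

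Of 35 mitosis genes, 10 fell (28.6%, against 2.75% of all genes) and 0 rose, also at an unadjusted p under 0.05. All 35 were below 0 with a median of −0.10, while 6576 of all 10518 genes were below 0. CDC20, the activator of the anaphase-promoting complex, had 108 and 109 RPKM with G007-LK, against 123 and 125 RPKM with DMSO (log2 fold change −0.19, adjusted p = 0.00177). KIF2C, a microtubule-depolymerizing kinesin, had 36.6 and 36.3 RPKM with G007-LK, against 43.5 and 42.1 RPKM with DMSO (−0.23, adjusted p = 0.00308). After rescaling 7 of the mitosis genes passed and the median was −0.08, while 3 or 4 passed without any 1 library. Of 41 DNA replication genes, TYMS (−0.15) and RRM2 (−0.11), both of nucleotide synthesis, fell (4.88%, against 2.75% of all genes). In that list 0 rose, also at an unadjusted p under 0.05.

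Heat shock and cytosolic chaperones fell in 10 of 24 genes (41.7%, against 2.75% of all genes). They rose in 0, also at an unadjusted p under 0.05, with a median of −0.10. HSP90AA1, the inducible HSP90, had 611 and 591 RPKM with G007-LK, against 651 and 669 RPKM with DMSO (log2 fold change −0.14, adjusted p = 0.0107). HSPA4L (−0.22), the HSP70 co-chaperone DNAJA1 (−0.14), HSPA8 (−0.11) and the chaperonin subunits TCP1 and CCT5 (−0.12 each) were further members. In 21 of the 24 both G007-LK libraries lay below both DMSO libraries, which held for 35.2% of all genes. Rescaling left 6 calls, and 1 to 5 were left without any 1 library.

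Of 31 proteasome genes 4 fell (12.9%, against 2.75% of all genes), with PSMC1, PSMC5 and PSMD14 at −0.12 and PSMD2 at −0.11, and 0 rose, also at an unadjusted p under 0.05. After rescaling 1 was left, and 0 or 1 without any 1 library. In contrast, limma called 0 of 79 cytosolic ribosomal protein genes, whose median was −0.016 and became 0.008 after rescaling, with 0 higher and 12 lower at an unadjusted p under 0.05. It also called 0 of 37 respiratory chain genes (1 higher and 7 lower at an unadjusted p under 0.05), 0 of 18 interferon genes (5 higher and 0 lower), 0 of 7 TGF-β and BMP targets (2 higher and 1 lower) and 0 of 6 NOTCH targets (0 in either direction). Stress lists under ATF4 and of the endoplasmic reticulum were close to unmoved. Of 25 ATF4 targets 1 rose and 1 fell (4% each), and of 20 chaperones of the endoplasmic reticulum 1 rose (5%). Of 27 p53 targets only GDF15 rose (3.7%). Over all genes 1.36% rose and 2.75% fell.

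**Figure D4:**
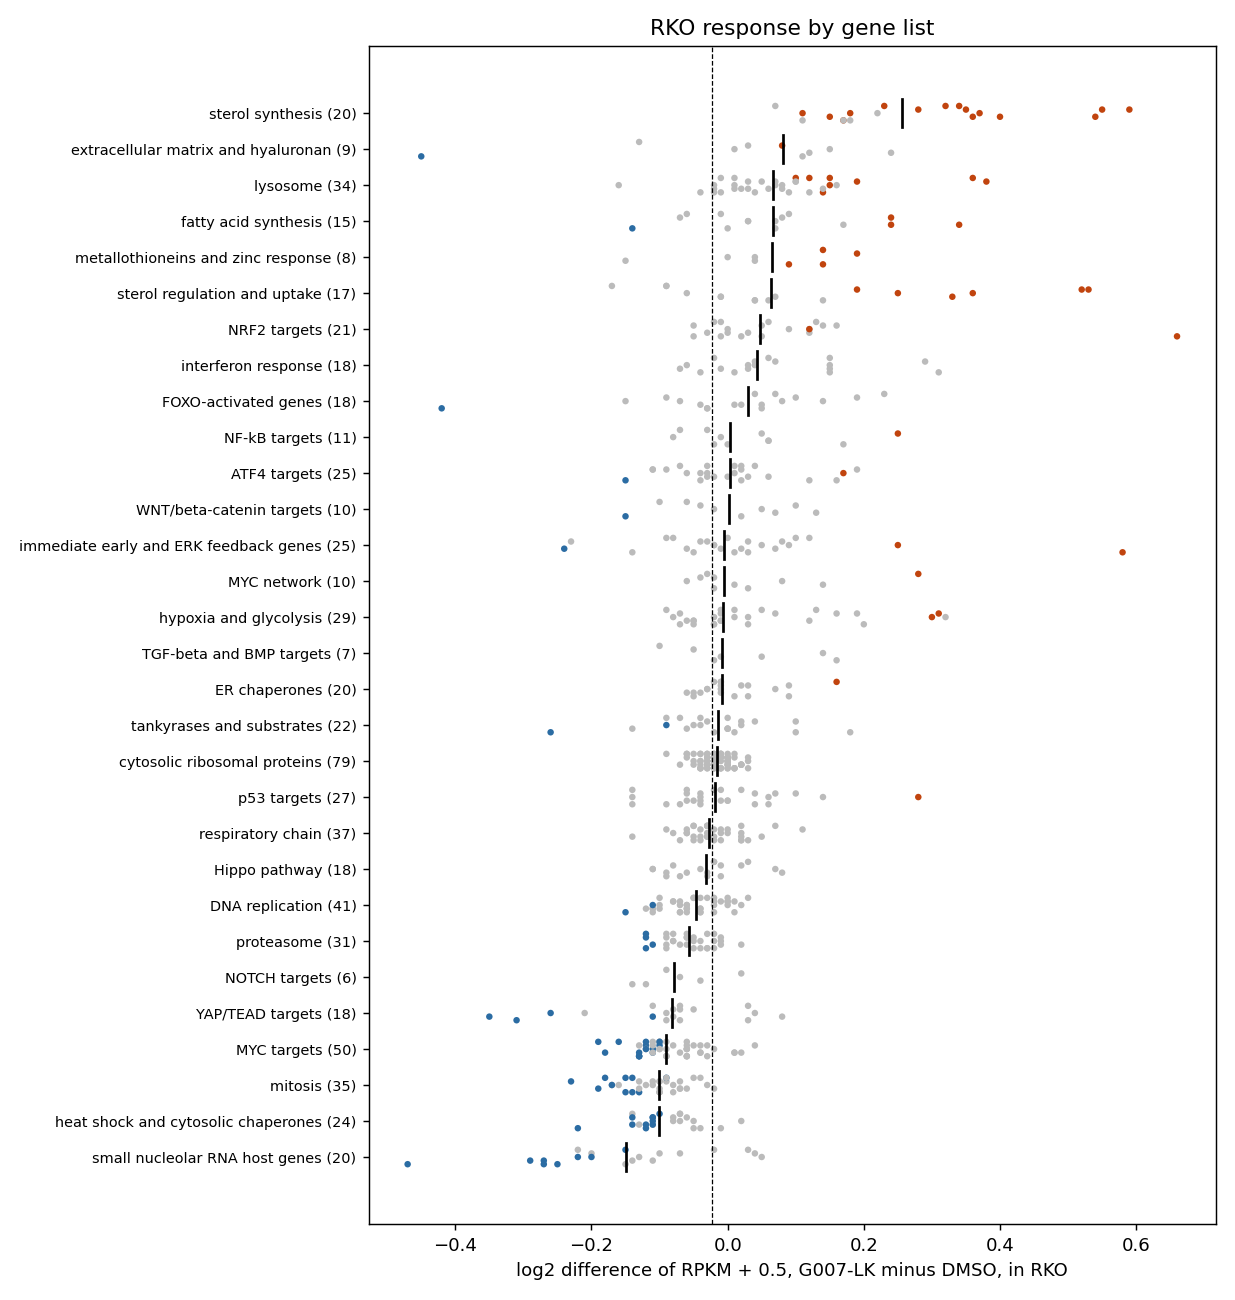
Gene lists in RKO. The x axis is the log2 fold change of G007-LK over DMSO, each row is a list and each point a gene tested, red where called higher, blue where called lower and grey otherwise, with a black bar at the list's median and a dashed line at the median of all genes. Sterol synthesis sits to the right with a median of 0.26, and host genes of small nucleolar RNAs sit farthest to the left with a median of −0.15.

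The response of RKO was then set against that of each sensitive line by testing whether the effect of G007-LK differed between the lines, over the 8 libraries of both. The responses differed in 4646 of 9522 genes for ABC-1 (48.8%), of which 3564 were higher in RKO (37.4%) and 1082 lower (11.4%). For OVCAR-4 they differed in 3767 of 10063 genes (37.4%), 3083 higher (30.6%) and 684 lower (6.8%). For COLO320DM the count was 1075 of 9766 (11.0%), 669 higher (6.85%) and 406 lower (4.16%), and for UO-31 it was 518 of 9947 (5.21%), 418 higher (4.2%) and 100 lower (1.01%).

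Rescaling evened the directions. For ABC-1 it gave 2494 genes higher in RKO (26.2%) and 2607 lower (27.4%), 53.6% in all, and for OVCAR-4 1357 higher (13.5%) and 1534 lower (15.2%), 28.7% in all. For COLO320DM it gave 1571 higher (16.1%) and 1265 lower (13%), 29.0% in all, and for UO-31 1210 higher (12.2%) and 851 lower (8.56%), 20.7% in all.

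The counts for COLO320DM and UO-31 changed by more than 1.5 times when any 1 of the 8 libraries was left out. For COLO320DM, 273 to 315 genes passed without any 1 RKO library, 655 and 537 without COLO320DM G007-LK replicate 1 or 2, and 2996 and 3492 without its DMSO replicate 1 or 2. For UO-31, 60 to 70 genes passed without any 1 RKO library, 64 and 49 without UO-31 DMSO replicate 1 or 2, and 5738 and 4804 without its G007-LK replicate 1 or 2. Counts for UO-31 in particular are therefore a loose guide, and a gene that misses the threshold there is not shown to respond alike.

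For sterol synthesis RKO stood beside COLO320DM. The median log2 fold change of the 20 enzymes was 0.26 in RKO, 0.31 in COLO320DM, 0.02 in OVCAR-4, −0.11 in UO-31 and −0.21 in ABC-1. The response in RKO was higher than in ABC-1 for 15 enzymes and lower for 1, where 37.4% of all genes were higher, and higher than in OVCAR-4 for 14 and lower for 0 (all genes, 30.6%). It was higher than in UO-31 for 5 and lower for 1 (all genes, 4.2%). Against COLO320DM, the other colorectal line, 1 enzyme was higher and 1 lower in RKO (all genes, 6.85% higher and 4.16% lower), with a median difference of −0.01. After rescaling RKO was higher for 13 enzymes against ABC-1, 11 against OVCAR-4, 13 against UO-31 and 4 against COLO320DM, and lower for 2, 2, 1 and 3.

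DHCR7 was the enzyme that stood higher in RKO than in each sensitive line, by 0.37 against COLO320DM (adjusted p = 0.0472), 0.62 against UO-31 (adjusted p = 0.0288), 0.72 against OVCAR-4 (adjusted p = 3.1e-06) and 0.71 against ABC-1 (adjusted p = 1.2e-06). TM7SF2, a sterol reductase, was lower in RKO than in COLO320DM by 0.76 (adjusted p = 0.00153), than in UO-31 by 0.58 (adjusted p = 0.0344) and than in ABC-1 by 1.04 (adjusted p = 1.6e-08).

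For MYC targets the lines parted. Their median was −0.09 in RKO, against −0.85 in ABC-1, −0.59 in UO-31, −0.44 in COLO320DM and −0.40 in OVCAR-4. The RKO response was higher for 49 of the 50 genes against ABC-1 (37.4% of all genes), 26 against UO-31 (4.2%), 29 against COLO320DM (6.85%) and 43 against OVCAR-4 (30.6%). After rescaling it was higher for 45, 41, 40 and 31, and it was lower for 0 in each comparison on either scale. MYC itself differed from COLO320DM by 0.57 (adjusted p = 0.00069), from OVCAR-4 by 0.40 (adjusted p = 0.00011) and from ABC-1 by 0.22 (adjusted p = 0.0381, lost after rescaling at 0.51), and by 0.16 from UO-31, which did not pass (adjusted p = 0.564). CCND1 was higher in the RKO response than in OVCAR-4 by 0.96 (adjusted p = 2.4e-07), ABC-1 by 0.88 (adjusted p = 9.3e-08) and COLO320DM by 0.58 (adjusted p = 0.014). Its difference from UO-31 is not given here.

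Mitosis genes had a median of −0.10 in RKO and −0.12 in COLO320DM, against −1.07 in ABC-1, −1.05 in UO-31 and −0.37 in OVCAR-4. The RKO response was higher for 4 of 35 against COLO320DM (6.85% of all genes), 35 against ABC-1 (37.4%), 34 against OVCAR-4 (30.6%) and 28 against UO-31 (4.2%). After rescaling it was higher for 6, 35, 20 and 35, and lower for 0 on either scale. YAP/TEAD targets had medians of −0.08 in RKO, −0.08 in COLO320DM, −0.81 in ABC-1, −0.68 in OVCAR-4 and −0.39 in UO-31. Here the RKO response was higher for 15 of 17 genes against OVCAR-4 (30.6% of all genes), 15 of 17 against ABC-1 (37.4%), 1 of 12 against COLO320DM (6.85%) and 0 of 18 against UO-31 (4.2%). After rescaling the counts were 14, 14, 2 and 6. WNT/β-catenin targets separated RKO most clearly from COLO320DM, where 7 of 10 were higher in RKO (6.85% of all genes), also after rescaling, among them NKD1 by 1.69 (adjusted p = 0.00026) and NKD2 by 1.23 (adjusted p = 0.00013).

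**Figure D5:**
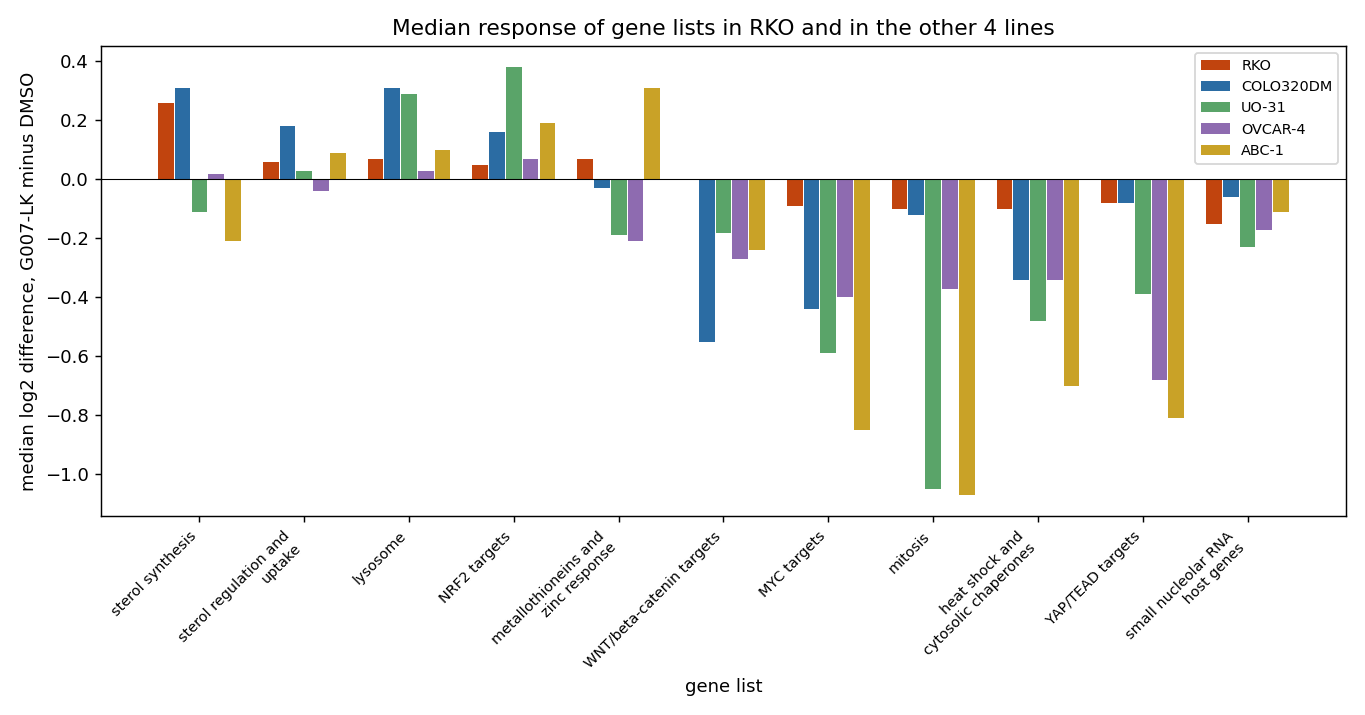
Medians of gene lists in the 5 lines. The y axis is the median log2 fold change of G007-LK over DMSO over the members tested in that line, with RKO leftmost. Sterol synthesis is at 0.26 in RKO and 0.31 in COLO320DM, and MYC targets at −0.09 in RKO and between −0.40 and −0.85 in the sensitive lines.

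Many genes that moved in RKO were also called in the same direction elsewhere, each line having its own controls. Of the RKO falls tested in a line, 219 of 274 (79.9%) also fell in ABC-1, where 43.3% of the shared genes did, 211 of 281 (75.1%) in OVCAR-4 (43.0% of shared genes), 130 of 283 (45.9%) in UO-31 (9.27%) and 97 of 270 (35.9%) in COLO320DM (11.3%). Of the RKO rises, 36 of 117 (30.8%) rose in ABC-1 (13.9% of shared genes), 51 of 133 (38.3%) in OVCAR-4 (10.1%), 19 of 133 (14.3%) in UO-31 (2.73%) and 43 of 120 (35.8%) in COLO320DM (6.61%). Calls in the opposite direction were also found: 33 RKO rises fell in ABC-1 (43.3% of shared genes fell), 24 in OVCAR-4 (43.0%), 6 in UO-31 (9.27%) and 9 in COLO320DM (11.3%). Of the RKO falls, 20 rose in ABC-1 (13.9% of shared genes rose), 7 in OVCAR-4 (10.1%), 4 in UO-31 (2.73%) and 12 in COLO320DM (6.61%). The overlaps made up 5.31% of the falls and 2.72% of the rises of ABC-1 among shared genes, 4.88% and 5.00% of those of OVCAR-4, 14.1% and 6.99% of those of UO-31, and 8.81% and 6.66% of those of COLO320DM. Over all genes tested in each line, 41.2% fell in ABC-1, 39.0% in OVCAR-4, 8.63% in UO-31 and 11.6% in COLO320DM, and 16.6% rose in ABC-1, 12.6% in OVCAR-4, 4.79% in UO-31 and 7.7% in COLO320DM.

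In all, 76 genes were called in the same direction in all 5 lines, 9 higher and 67 lower, of 371 RKO calls tested in every line. The share of all genes called alike in every sensitive line was not computed, so these counts have no background. The 67 were among 262 RKO falls tested in every line, and the 9 among 109 rises. Falls made up 43.3% of the genes shared with ABC-1, 43% with OVCAR-4, 11.3% with COLO320DM and 9.27% with UO-31. Rises made up 13.9%, 10.1%, 6.61% and 2.73% in the same order. A gene called in every line is counted in each of these shares. Whether the 76 genes exceed the share called alike in all lines was not tested. HMOX1 and SQSTM1 were among the 9 called higher. The log2 fold change of HMOX1 was 0.66 in RKO, 0.63 in COLO320DM, 0.71 in OVCAR-4, 1.60 in UO-31 and 1.87 in ABC-1, and RKO was lower than UO-31 by 0.94 (adjusted p = 0.00173) and than ABC-1 by 1.21 (adjusted p = 4.2e-08). CYR61 fell in all 5, by 0.31 in RKO, 0.48 in COLO320DM, 0.68 in OVCAR-4, 0.79 in UO-31 and 1.62 in ABC-1, with RKO higher than OVCAR-4 by 0.38 (adjusted p = 7e-05) and than ABC-1 by 1.31 (adjusted p = 1.2e-09).

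Host genes of small nucleolar RNAs had a median of −0.15 in RKO, with 8 of 20 lower (2.75% of all genes). The median was −0.23 in UO-31, with 3 lower (8.63% of all genes), and −0.17 in OVCAR-4, with 11 lower (39%). It was −0.11 in ABC-1, with 7 lower and 4 higher (41.2% and 16.6% of all genes). In COLO320DM it was −0.06, with 2 lower and 2 higher (11.6% and 7.7%). The counts in ABC-1 and COLO320DM were therefore near the shares of all genes. Single genes differed between the lines. GAS5 was at −0.25 in RKO, against 0.36 in COLO320DM (difference −0.61, adjusted p = 0.00198) and 0.35 in ABC-1 (difference −0.60, adjusted p = 2e-07). C6orf48 was at −0.47 in RKO, against 0.22 in COLO320DM (difference −0.69, adjusted p = 0.00068) and 0.07 in ABC-1 (difference −0.54, adjusted p = 1.1e-06). ZFAS1 also differed from both, by −0.41 (adjusted p = 0.00292) and −0.48 (adjusted p = 1.6e-06). SNHG15 went the other way, and its response differed from that in each other line. It was at −0.20 in RKO, against −0.53 in COLO320DM, −0.79 in UO-31, −0.44 in OVCAR-4 and −1.03 in ABC-1. Over the list, RKO was lower for 8 of 20 genes and higher for 5 against ABC-1 (11.4% and 37.4% of all genes), lower for 7 and higher for 2 against COLO320DM (4.16% and 6.85%), lower for 6 and higher for 5 against OVCAR-4 (6.8% and 30.6%), and lower for 0 and higher for 3 against UO-31 (1.01% and 4.2%). After rescaling it was lower for 11, 6, 7 and 1 and higher for 3, 1, 1 and 3.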

How the data were processed

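Poly(A)-selected RNA of 20 libraries was sequenced at BGI. The authors aligned the reads to hg19 reference genes with SOAPaligner/SOAP2, allowing up to 2 mismatches, and deposited RPKM values, which are scaled to gene length and mapped reads. The sources used here give neither the aligner's version nor a strand setting. The table had 21610 entries, of which 8 without a symbol held at most 0.00134% of a library's RPKM and were left out, and 371 symbols stood on several entries and were counted once. Hyphens in symbols are garbled in the table and were restored for listed genes. The other deposited files hold only the authors' own NOISeq comparisons (log2 ratios and probabilities) and were not used.

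RKO G007-LK libraries (2) were compared with RKO DMSO libraries (2) by limma 3.58.1 with statmod 1.5.0 in R 4.3.3, on log2(RPKM + 0.5), with trended and robust empirical Bayes, two-sided, and Benjamini-Hochberg adjustment over all genes whose mean reached 1 RPKM, at a threshold of 0.05. Depth could be read only as ratios between libraries. Responses of 2 lines were compared through the interaction over 8 libraries. The prior degrees of freedom were 7.81 in RKO and infinite in the fits of UO-31 and ABC-1 alone. There the spread came wholly from the trend, so adjusted p of those fits are not printed. Counts of their calls are given and share this limit. The RKO fit was tried on simulated data drawn with the RKO spread. Planted changes of 0.25, 0.5 and 1 on the log2 scale were recovered in 82.6%, 98.8% and 99.2% of cases. The genes called in RKO had smaller median changes, 0.21 for rises and −0.15 for falls. Recovery of changes that small was not measured. A mean of 20.8 unchanged genes per run were also called, so some of the calls in RKO may be false. Tables and plots used Python 3.11.15, numpy 2.4.6, pandas 2.3.3 and matplotlib 3.10.9.

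Genes named are the 15 largest rises and 15 largest falls past the threshold whose mean reached 5 RPKM, with separate groups (small RNA genes apart), up to 8 called members per gene list, every member of the sterol synthesis, NRF2 and small nucleolar RNA host lists, any tested member of the WNT, YAP, tankyrase, Hippo and MYC network lists, genes the study followed, and those differing from all 4 other lines. The genes past 1.5-fold, UAP1L1 and GNPDA1 were named after their values were seen. The members and lists were chosen with earlier results of these data known. Some list members are not reported here by name. Lists are described by counts and medians without a set test. Alternatives were other pseudocounts, filters and normalizations, each library left out, the replicate number as a block, 1 fit over all libraries and a NOISeq-like rule. Gene positions are from GENCODE lifted to GRCh37 and promoters from RefSeq (GRCh38.p14).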

Additional observations from a re-analysis of the deposited data

Results flagged for a closer look

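The response of RKO differed from that of a sensitive line, by the interaction test of limma, in 1075 genes for COLO320DM, 518 for UO-31, 3767 for OVCAR-4 and 4646 for ABC-1.

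Some genes called in RKO differed in response from all 4 other lines, and the value given is the RKO log2 fold change minus that of the nearest line. SNORA31, a low small RNA gene, was at −1.52 and MYL5, a myosin light chain, at −0.61. Higher in RKO than in the nearest line were MT2A (0.41, where ABC-1 was the line above RKO), LYAR (0.38), a nucleolar protein, DHCR7 (0.37), PEA15 (0.37), a phosphoprotein that binds ERK, PA2G4 (0.33), a growth regulator that binds RNA, and DKC1 (0.32), the pseudouridine synthase dyskerin. LYAR, PA2G4 and DKC1 fell in RKO by 0.12, 0.10 and 0.12, and their falls there were lost after rescaling (adjusted p = 0.0918, 0.0853 and 0.082). PEA15 rose in RKO, at 91.4 and 93.3 RPKM with G007-LK, against 84.9 and 84.1 RPKM with DMSO.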

How the results depend on the processing

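Without a filter on low values 39 genes rose and 33 fell in RKO, at a minimum of 5 RPKM 495 fell, with the median ratio 111 fell, with quantile normalization 98 fell, with the spread of all 20 libraries 7 rose and 4 fell, and with the NOISeq-like rule 7 rose and 4 fell. Leaving out 1 library gave 56 to 71 rises and 62 to 84 falls in RKO, and 273 to 3492 differences from COLO320DM and 49 to 5738 from UO-31. With the median ratio there were 2836 differences from COLO320DM and 2061 from UO-31, and with quantile normalization 2723 and 2292. The median ratio in the other lines was added after seeing the data and gave 4351 genes called in COLO320DM (2178 without it) and 3564 in UO-31 (1591). With the replicate number as a block, 73 genes rose and 77 fell in RKO and 287 differed from COLO320DM. The labels state no shared origin for replicates of the same number, so whether they were paired is unknown. The replicate differences of the groups correlated at 0.0551 across genes, which cannot decide this. Of 120 named calls, 101 were kept with the median ratio, 96 with quantile normalization, 71 with the block, 43 without the filter and 10 with the spread of all 20 libraries, and 0 reversed. Pseudocounts of 0.1 and 1 kept all 120. The causes were not tested. With 2 libraries per group and no counts, the smallest changes called in RKO were 0.08 and −0.07 on the log2 scale, while SC5D at 0.22 missed the threshold, so a gene not called is not shown to be unchanged.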
